A study of Mus musculus with 8 samples.

Results

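The guanylate-binding proteins (GBPs) are a family of large GTPases. Taken as members here were 10 mouse genes, Gbp2 to Gbp11, by their gene symbol from a count table of 22274 genes. All 10 had a row in the table, as did Gbp2b, a further Gbp gene that is not among the 10. The tested libraries were 4 labelled TGF-β ad-CRE, from cells given an adenovirus named for the Cre recombinase, and they were set against 4 labelled TGF-β ad-GFP, given an adenovirus named for green fluorescent protein. All 8 came from RFB, a mouse kidney line labelled as fibroblast, and all had been treated with TGF-β, the cytokine that drives fibroblast activation. The study names Suv39h1, a histone H3 lysine 9 methyltransferase, as the gene reduced in its derived cells, and the labels describe no allele for Cre to act on and no passage or clone. Whether the 4 replicates of a group were grown separately is not in the labels, and the spread behind each p-value may therefore be no more than technical.

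GBPs are induced by interferons, above all by interferon gamma, through factors, IRF1 among them, that act at the gamma-activated site (GAS) and the interferon-stimulated response element (ISRE) of their promoters. The proteins bind and hydrolyse GTP, assemble into polymers on membranes, and in mice coat and break the vacuoles of intracellular parasites and bacteria. They also feed into inflammasome activation. In the mouse genome the family lies in 2 runs of neighbouring genes, one on chromosome 3 and one on chromosome 5.

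On the GRCm38 build with GENCODE M21 annotation, the 4 chromosome 3 members lie on the plus strand in the order Gbp5 (chr3:142493978-142522344), Gbp7 (chr3:142530342-142550149), Gbp3 (chr3:142560026-142573209) and Gbp2 (chr3:142620602-142638008). The 6 chromosome 5 members lie on the minus strand, and in rising coordinates they are Gbp8 (chr5:105014150-105139540), Gbp9 (chr5:105077630-105139539), Gbp4 (chr5:105115767-105139586), Gbp10 (chr5:105215699-105239533), Gbp6 (chr5:105270702-105293698) and Gbp11 (chr5:105323042-105346472). Gbp11 is annotated as a polymorphic pseudogene and the other 9 as protein coding.

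Promoter sequence is shown because the family is known for its interferon-response elements, and the windows given are those of the members that matched the promoter table. RefSeq promoters of the GRCm38.p6 build, running from 250 bases before to 50 bases after a start site, matched 4 of the 10 members by symbol. Gbp4, Gbp6, Gbp8, Gbp9, Gbp10 and Gbp11 are named only. All 4 windows are on the plus strand of chromosome 3, at chr3:142620413-142620712 for Gbp2, chr3:142559794-142560093 for Gbp3, chr3:142496684-142496983 for Gbp5 and chr3:142530086-142530385 for Gbp7. They are printed 5′ to 3′ with matches to the ISRE core (GAAA, any pair of bases, then GAAA) and to the GAS letters TTCNNNGAA in capitals, both strands having been searched.
Gbp2: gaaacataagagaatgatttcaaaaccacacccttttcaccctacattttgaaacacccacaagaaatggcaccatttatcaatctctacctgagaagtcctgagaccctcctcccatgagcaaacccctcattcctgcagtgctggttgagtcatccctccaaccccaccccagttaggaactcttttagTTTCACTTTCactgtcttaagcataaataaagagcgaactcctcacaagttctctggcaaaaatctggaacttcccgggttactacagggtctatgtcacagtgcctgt
Gbp3: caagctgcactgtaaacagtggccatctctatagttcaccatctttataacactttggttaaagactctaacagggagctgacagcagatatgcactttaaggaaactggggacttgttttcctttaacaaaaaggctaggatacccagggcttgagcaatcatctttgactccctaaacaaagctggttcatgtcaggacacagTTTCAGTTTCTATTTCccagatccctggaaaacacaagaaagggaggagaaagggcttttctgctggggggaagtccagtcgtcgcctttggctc
Gbp5: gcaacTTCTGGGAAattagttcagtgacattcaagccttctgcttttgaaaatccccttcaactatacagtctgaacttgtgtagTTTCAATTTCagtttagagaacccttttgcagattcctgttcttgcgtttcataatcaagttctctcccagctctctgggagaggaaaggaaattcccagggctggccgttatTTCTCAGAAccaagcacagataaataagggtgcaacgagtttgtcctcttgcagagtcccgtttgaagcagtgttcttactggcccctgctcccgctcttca
Gbp7: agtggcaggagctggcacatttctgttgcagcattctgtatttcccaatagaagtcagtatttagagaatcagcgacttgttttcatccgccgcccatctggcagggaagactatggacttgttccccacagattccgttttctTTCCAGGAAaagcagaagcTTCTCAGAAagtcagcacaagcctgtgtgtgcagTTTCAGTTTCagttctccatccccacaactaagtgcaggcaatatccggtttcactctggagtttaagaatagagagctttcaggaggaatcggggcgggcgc

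Each of the 4 windows held the ISRE core, read on the minus strand and so printed as TTTC, any pair of bases and TTTC. In Gbp2 it lay 59 to 50 bases before the start site, in Gbp7 53 to 44 bases before, and in Gbp5 165 to 156 bases before. Gbp3 held a pair of overlapping cores, 45 to 36 and 39 to 30 bases before its start site, and its other RefSeq start site, with the window chr3:142560106-142560405, had no match. The GAS letters were found in Gbp5, 245 to 237 and 52 to 44 bases before the start site, and in Gbp7, 106 to 98 and 87 to 79 bases before it, and in neither Gbp2 nor Gbp3. Of 32851 mouse promoter windows of the same length, 3.44% held the ISRE core, 8.3% the GAS letters and 0.45% both. The longer ISRE letters, which are the core followed by CT, occurred in all 4 genes and in 0.27% of the windows. A match describes letters in a window and is neither a binding site nor a cause of any value given here.

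**Figure D1:**
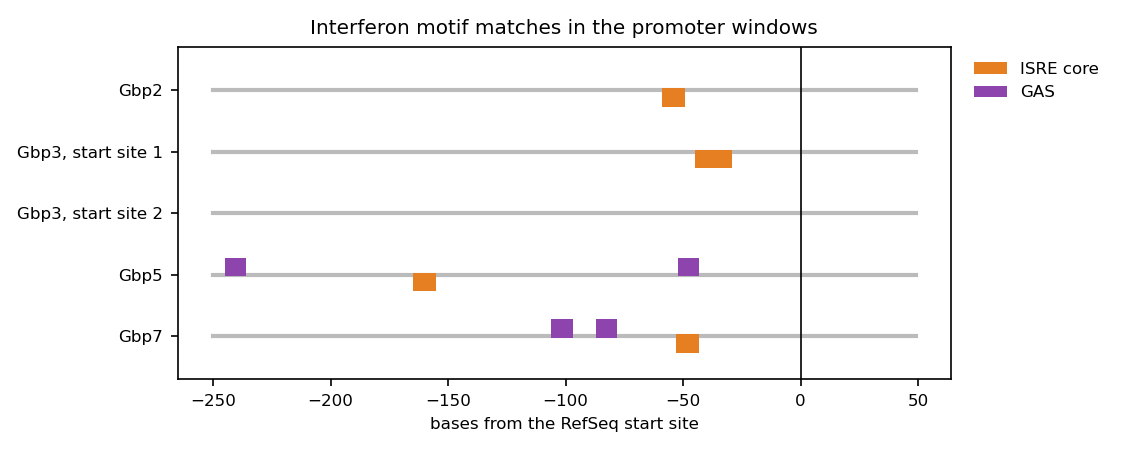
Positions of the ISRE core and GAS letters in the RefSeq promoter windows of Gbp2, Gbp3 (both start sites), Gbp5 and Gbp7, with the distance from the start site in bases on the x axis. Each window is a grey line, with purple boxes set above it for the GAS letters and orange boxes below it for the ISRE core. The ISRE core lies within 59 bases of the start site in Gbp2, in one Gbp3 window and in Gbp7, and 165 bases before it in Gbp5.

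Libraries held 17572152 to 22297598 counted reads in the ad-CRE group and 15998257 to 20920828 in the ad-GFP group, and gene levels are given as CPM, counts per 1000000 library counts after scaling. Suv39h1 averaged 32.5 ± 0.795 CPM in ad-CRE and 41.5 ± 3.16 CPM in ad-GFP libraries (SD, n = 4 each), or -0.35 on the log2 scale (SE 0.053 and adjusted p = 8.65e-07 in edgeR). Smarca4, a chromatin remodeller ATPase that the labels do not name, averaged 34.3 ± 3.2 CPM in ad-CRE and 288 ± 11.1 CPM in ad-GFP libraries, a log2 fold change of -3.07 (edgeR adjusted p = 3.82e-31). Both changes separate the same 4 libraries from the same 4, and their parts in the GBP values cannot be told apart. Markers of cell types also separated the groups, in a comparison where 36.3% of all genes tested fell and 36.8% rose. Fibroblast markers summed to 830 to 889 CPM in ad-CRE and 1934 to 2033 CPM in ad-GFP libraries, with 8 of 9 tested lower and Pdgfra higher, and Lum had 1 read in all. Dcn was tested through its ad-GFP level, having reached the cutoff of the filter on low counts in 1 ad-CRE library. Of the 8 fibroblast markers that reached it in all 8 libraries, 7 fell and 1 rose. Epithelial markers summed to 4598 to 4808 CPM in ad-CRE and 1851 to 2086 CPM in ad-GFP libraries, with 5 of 6 higher, so keratin and cadherin transcripts were abundant in a line labelled fibroblast.

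The leukocyte and endothelial lists bear most on GBPs, which such cells also express. Leukocyte markers summed to 95.6 to 101 CPM in ad-CRE and 136 to 161 CPM in ad-GFP libraries. Of 6 tested, 5 fell, with a median log2 fold change of -0.50 over the 6, and Ptprc, which encodes the pan-leukocyte antigen CD45, did not pass (14.9 ± 1.26 CPM in ad-CRE and 16.4 ± 2.9 CPM in ad-GFP libraries; log2 fold change -0.13, edgeR adjusted p = 0.22). Cd3e had no read. Endothelial markers summed to 61.1 to 69.2 CPM in ad-CRE and 134 to 147 CPM in ad-GFP libraries, all 6 fell, and their median log2 fold change was -1.04. The share of all genes tested that fell was 36.3%. In a bulk sample fewer cells of a type and less RNA per cell cannot be told apart, and the part of these cells in the GBP values was not tested.

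The GBP transcripts were lower in ad-CRE cells as a family. Summed over the 10 members, they made up 48.8, 51.8, 53.6 and 56.8 CPM in ad-CRE libraries 1 to 4, against 200, 174, 187 and 175 CPM in ad-GFP libraries 1 to 4. The ad-CRE values all lay below the lowest ad-GFP value, and the ad-GFP mean was 3.49 times the ad-CRE mean. Of the 10 members, 9 passed the filter on low counts, and each of the 9 fell at an adjusted p under 0.05 by edgeR's quasi-likelihood test with Benjamini-Hochberg adjustment over 13702 genes. In the same comparison 36.3% of all genes tested fell and 36.8% rose. The groups did not overlap, with ad-CRE lower, in 7 of the 9 members and in 32.8% of all genes tested. By 1 log2 unit or more, 8 members fell, as did 9.43% of all genes tested. The median log2 fold change was -1.66 over the 9 members and 3.87e-05 over all genes tested. No member rose, and the count of risen members was also 0 at an unadjusted p under 0.05 and in DESeq2 and limma voom.

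These 9 members are not equal evidence. Gbp5, Gbp6 and Gbp10 passed the filter through their ad-GFP libraries, having reached its cutoff of 0.516 CPM in 1, 1 and 0 ad-CRE libraries, so they were tested on the strength of their ad-GFP level and had to be lower in ad-CRE libraries if the groups differed much. Gbp2, Gbp3, Gbp4, Gbp7, Gbp8 and Gbp9 reached it in all 8 libraries. All 6 of these fell, all but Gbp8 by 1 log2 unit or more, and their median log2 fold change was -1.63. Among the 12694 genes that reached it in all 8 libraries, 4434 fell, and the median over the 12694 was 0.02. Gbp11 reached the cutoff in no library.

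**Figure D2:**
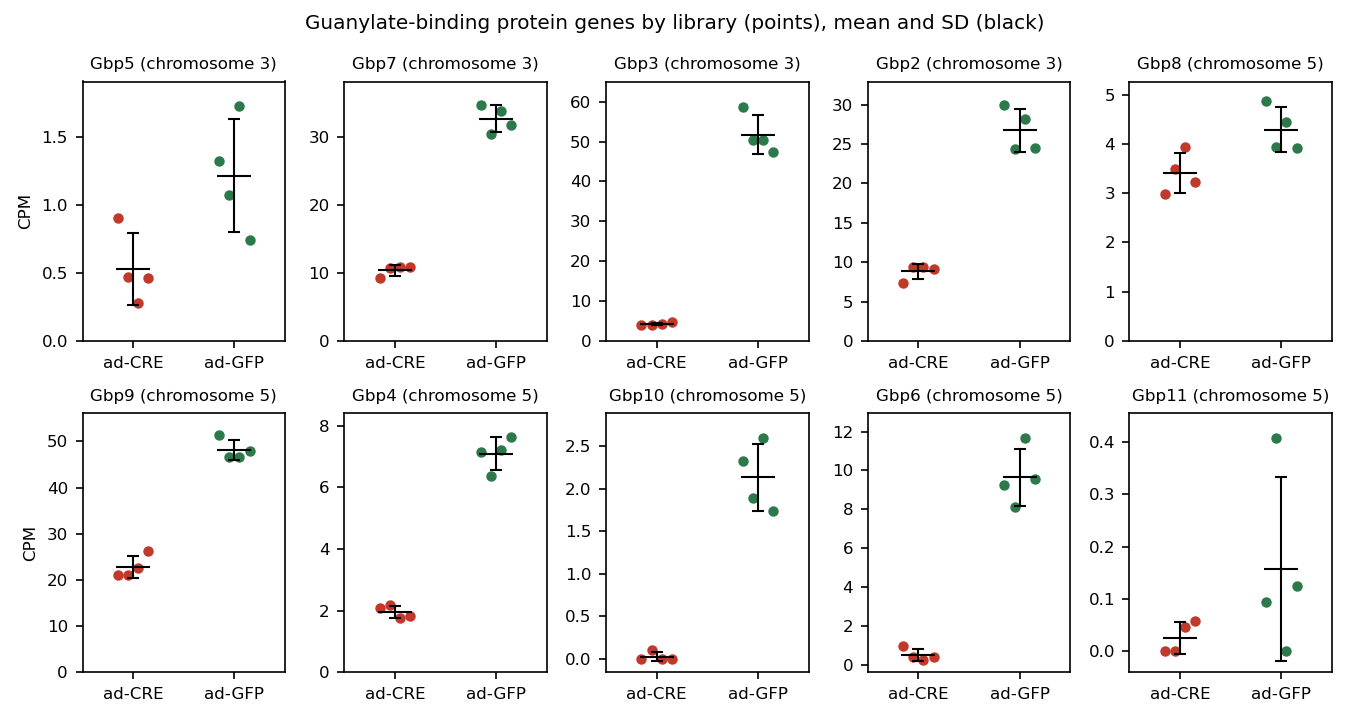
CPM of each member in each library, on a linear y axis set separately for each panel, with ad-CRE left of ad-GFP libraries, points for libraries, wide black lines for group means and error bars for SD (n = 4 each). The groups are apart in Gbp2, Gbp3, Gbp4, Gbp6, Gbp7, Gbp9 and Gbp10 and overlap in Gbp5, Gbp8 and Gbp11.

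Among the chromosome 3 members, Gbp3 changed most. It had 4.12, 3.90, 4.35 and 4.66 CPM in the 4 ad-CRE libraries, against 58.6, 50.4, 50.4 and 47.3 CPM in the 4 ad-GFP libraries. The ad-CRE libraries sat close together, and the groups were far apart, with an ad-GFP mean 12.1 times the ad-CRE mean. The log2 fold change was -3.61 (SE 0.08 and adjusted p = 2.11e-26 in edgeR), lower than that of all but 0.832% of the genes tested. Gbp3 encodes a GBP that gathers at parasite vacuoles in mouse cells.

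Gbp2 and Gbp7 are its neighbours among the members and changed less. Gbp2, whose prenylated product is among the best studied mouse GBPs in the control of Toxoplasma, had 7.42, 9.37, 9.39 and 9.10 CPM in ad-CRE libraries, against 30.0, 24.3, 28.1 and 24.5 CPM in ad-GFP libraries. Its log2 fold change was -1.61 (SE 0.082 and adjusted p = 3.48e-17 in edgeR). Gbp7, linked in mice to oxidase assembly and autophagy at bacterial vacuoles, had 9.23, 10.7, 10.9 and 10.8 CPM in ad-CRE libraries, against 34.8, 30.5, 34.0 and 31.9 CPM in ad-GFP libraries. Its log2 fold change was -1.66 (SE 0.068 and adjusted p = 1.18e-19 in edgeR). In both genes the highest ad-CRE library was well below the lowest ad-GFP library, and in both the lowest ad-CRE value was that of replicate 1.

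Gbp5, a prenylated GBP known for promoting NLRP3 inflammasome assembly, was the least expressed chromosome 3 member. It had 0.905, 0.468, 0.278 and 0.461 CPM in ad-CRE libraries, against 1.33, 1.07, 1.73 and 0.745 CPM in ad-GFP libraries. The highest ad-CRE library, replicate 1, exceeded the lowest ad-GFP library, so the groups overlapped, and the values rest on 43 reads in ad-CRE and 91 in ad-GFP libraries together. The log2 fold change was -1.19 (SE 0.33 and adjusted p = 0.00193 in edgeR) and ranged from -1.61 without ad-CRE replicate 1 to -0.96 without ad-CRE replicate 3.

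On chromosome 5, Gbp9 was the most abundant member and Gbp8 the least changed. Gbp9 had 21.1, 21.2, 22.6 and 26.2 CPM in ad-CRE libraries, against 51.4, 46.7, 46.6 and 47.8 CPM in ad-GFP libraries. The groups did not overlap, and the log2 fold change was -1.09 (SE 0.058 and adjusted p = 1.23e-16 in edgeR). Gbp4 had 2.08, 2.19, 1.76 and 1.84 CPM in ad-CRE libraries, against 7.15, 6.38, 7.21 and 7.64 CPM in ad-GFP libraries. These groups too were apart, with a log2 fold change of -1.84 (SE 0.14 and adjusted p = 5.06e-13 in edgeR).

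Gbp8 stood at 2.99, 3.49, 3.93 and 3.23 CPM in ad-CRE libraries, against 4.88, 3.93, 4.44 and 3.91 CPM in ad-GFP libraries. Its highest ad-CRE library lay level with its lowest ad-GFP libraries. The log2 fold change was -0.33 (SE 0.14 and adjusted p = 0.0383 in edgeR), and 25.5% of all genes tested had a lower one. That call was lost in DESeq2 (adjusted p = 0.103), with no filter (edgeR adjusted p = 0.0566), on both log2 FPKM scales in limma (adjusted p = 0.101 and 0.108) and without any one of ad-CRE replicates 1, 2 or 4 or ad-GFP replicates 1 or 3 (edgeR adjusted p = 0.0539 to 0.14). In the authors' deposited table its log2 fold change was -0.28 with a false discovery rate of 0.109.

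The members with the lowest log2 fold changes were Gbp6 and Gbp10, both on chromosome 5. Gbp6 had 0.995, 0.416, 0.278 and 0.403 CPM in ad-CRE libraries, against 9.23, 8.11, 11.6 and 9.57 CPM in ad-GFP libraries. The groups were wide apart, on 43 reads in ad-CRE and 710 in ad-GFP libraries, with a log2 fold change of -4.15 (SE 0.21 and adjusted p = 3.02e-17 in edgeR). Without ad-CRE replicate 1, which held the most Gbp6 of its group, it was -4.71.

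Gbp10 had 0, 2, 0 and 0 reads in ad-CRE libraries, against 49, 37, 45 and 28 reads in ad-GFP libraries. The level in ad-GFP was 86.1 times that in ad-CRE libraries, with an exact 95% interval of 23.4 to 717 that covers counting error only. Its adjusted p in edgeR was 2.77e-12. All ad-CRE reads of Gbp10 came from replicate 2, and without that library the gene was at least 43.6-fold lower in ad-CRE, taking 3 counts over the group as the limit that a count of 0 allows.

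Gbp11 had 0, 0, 1 and 1 reads in ad-CRE libraries, against 2, 8, 0 and 2 reads in ad-GFP libraries, and did not pass the filter. The groups overlapped at these few reads. The ad-GFP level was 6.50 times the ad-CRE level, with an exact 95% counting interval of 1.45 to 59.8. Most of the ad-GFP reads came from replicate 2, and without it the ratio was 2.94 (exact 95% counting interval 0.422 to 32.5). With no filter the edgeR adjusted p of Gbp11 was 0.0411, and in DESeq2 the adjusted p was 0.112.

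Near-identical copies limit what the Gbp6 and Gbp10 rows can say apart from each other. Their coding sequences are 98.4% identical, whereas the other pairs on chromosome 5 share 89.6% to 93.8% and Gbp3 and Gbp7, the closest pair on chromosome 3, share 78.3%. Of all 50-base windows along the transcript, 90.2% in Gbp6 and 82.5% in Gbp10 recur without mismatch in another annotated gene, mostly Gm43302, an overlapping same-strand gene annotated as protein coding. Gm43302 shares 29.0% of the exonic bases of Gbp6 and 46.3% of those of Gbp10. It had 0, 5, 7 and 0 reads in ad-CRE libraries, against 140, 85, 80 and 59 reads in ad-GFP libraries. The sources used here do not say how reads with several matches were counted, and the split of reads among these 3 rows is uncertain. Their sum fell with a log2 fold change of -4.54 (SE 0.16 and adjusted p = 4.09e-21 in edgeR).

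The other members had fewer recurring windows, from 21.2% in Gbp8 and 19.2% in Gbp11 to 12.8% in Gbp4 and in Gbp7, 9.6% in Gbp9, 4.8% in Gbp3, 2.5% in Gbp5 and 2.1% in Gbp2. Gbp8, Gbp9 and Gbp4 overlap on 1 strand and share 60 to 61 exonic bases. Summed with Gm43302, the 6 chromosome 5 members fell with a log2 fold change of -1.41 (SE 0.051 and adjusted p = 4.96e-21 in edgeR). That value does not depend on how reads were divided within that run of genes, provided each read was counted once there.

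Per transcript length the order of the members differed between the groups. On the deposited FPKM scale (fragments per kilobase of transcript and per 1000000 fragments), ad-CRE cells had Gbp9 highest at 5.45 ± 0.444, then Gbp2 at 3.63 ± 0.202, Gbp7 at 2.15 ± 0.116, Gbp3 at 1.64 ± 0.221 and Gbp8 at 1.48 ± 0.326 FPKM (SD, n = 4). The ad-GFP cells had Gbp3 highest at 21.4 ± 2.02, then Gbp9 at 12.8 ± 0.478, Gbp2 at 10.7 ± 1.12, Gbp7 at 7.0 ± 0.464 and Gbp6 at 3.18 ± 0.482 FPKM (SD, n = 4). Ranges of neighbours in these orders were apart except for Gbp3 and Gbp8 in ad-CRE and, in ad-GFP, Gbp6 with Gbp4 at 2.25 ± 0.356 FPKM. Lower down, Gbp4 averaged 0.725 ± 0.234 FPKM in ad-CRE cells, Gbp8 averaged 1.80 ± 0.166 FPKM in ad-GFP cells with a range that overlapped that of Gbp4, and the remaining members were at or below 0.17 FPKM in ad-CRE and 0.613 FPKM in ad-GFP cells. Gbp3 was thus the leading GBP transcript of ad-GFP cells and the fourth of ad-CRE cells.

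As a share of the summed member FPKM, Gbp3 made up 10.6 ± 1.08% in ad-CRE and 35.6 ± 1.81% in ad-GFP libraries. Gbp9 made up 35.3 ± 1.44% in ad-CRE and 21.3 ± 0.921% in ad-GFP libraries, and Gbp8 made up 9.58 ± 1.88% in ad-CRE and 2.98 ± 0.117% in ad-GFP libraries. Gbp6 made up 1.02 ± 0.606% in ad-CRE and 5.29 ± 0.81% in ad-GFP libraries. Gbp2 made up 23.6 ± 1.47% in ad-CRE and 17.8 ± 0.689% in ad-GFP libraries, and Gbp7 made up 13.9 ± 0.2% in ad-CRE and 11.6 ± 0.428% in ad-GFP libraries. These shares describe a family that was smaller in ad-CRE cells. Of the members named here, it held less Gbp3 and Gbp6 and more Gbp9, Gbp8, Gbp2 and Gbp7 relative to its total.

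**Figure D3:**
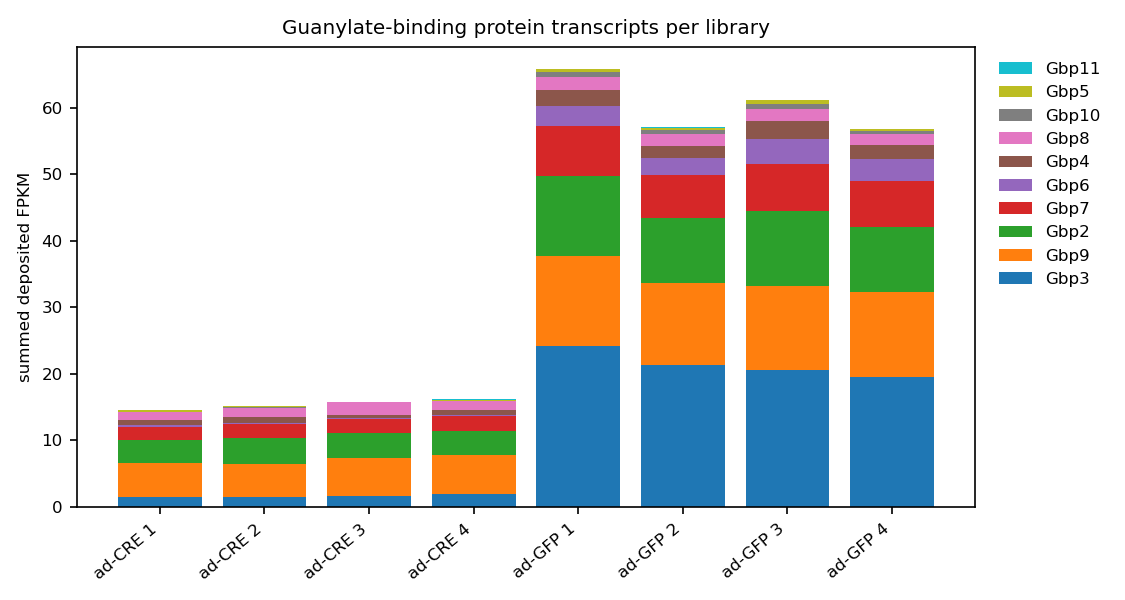
Summed deposited FPKM of the family in each library as stacked bars, with ad-CRE libraries left of ad-GFP libraries and one colour per member. The bars reach 14.5 to 16.2 FPKM in ad-CRE and 56.8 to 65.9 FPKM in ad-GFP libraries, and Gbp3, at the foot of each bar, takes 9.53 to 12.1% of the ad-CRE bars and 33.7 to 37.4% of the ad-GFP bars.

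Ratios between members within a library do not depend on how libraries were scaled, and they were used to ask whether members changed by different folds. The log2 ratio of summed chromosome 3 to summed chromosome 5 counts was -0.26 ± 0.0893 in ad-CRE and 0.65 ± 0.0705 in ad-GFP libraries (SD, n = 4 each). No ad-CRE library reached the ad-GFP range, and the difference of -0.91 had an exact two-sided permutation p = 0.0286, the smallest that 4 against 4 libraries allow. The chromosome 3 members thus fell further, as a sum, than the chromosome 5 members. Such sums weigh members by their reads, and Gbp3 held 3861 and Gbp9 3579 of the ad-GFP reads. Member by member the order was not the same, since the lowest log2 fold changes, of Gbp6 (-4.15) and Gbp10 (-6.10), are on chromosome 5. Gm43302, with 12 reads in ad-CRE and 364 in ad-GFP libraries, is in neither sum. Chromosome 3 counts summed to 479, 470, 539 and 435 in ad-CRE and 2635, 2082, 1981 and 1681 in ad-GFP libraries.

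Of 36 pairs of the 9 tested members, 26 had a count ratio that differed between groups (exact permutation p = 0.0286, adjusted over the 36 pairs 0.0396). Of these, 14 hold Gbp5, Gbp6 or Gbp10, which were tested through their ad-GFP level (7 of them Gbp10), so those pairs are given as a description only. Among the 6 members at or above the cutoff in all 8 libraries, 12 of 15 pairs differed. The share among pairs of other genes was not tested. Single genes separated the groups, in either direction, in 66.2% of all genes tested, so these pair counts cannot be called particular to GBPs. The log2 ratio of Gbp3 to Gbp7 was -1.29 ± 0.13 in ad-CRE and 0.65 ± 0.0989 in ad-GFP libraries, so these adjacent genes changed by different folds. Gbp2 over Gbp3 was 1.04 ± 0.179 in ad-CRE and -0.95 ± 0.0858 in ad-GFP libraries. Gbp8 over Gbp9 was -2.73 ± 0.223 in ad-CRE and -3.48 ± 0.113 in ad-GFP libraries, although those genes overlap.

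The other 10 pairs did not pass. They were Gbp2 with Gbp4, Gbp5 and Gbp7, Gbp4 with Gbp5 and Gbp7, Gbp5 with Gbp7, Gbp8 and Gbp9, Gbp3 with Gbp6, and Gbp6 with Gbp10, and 5 of them hold Gbp5 with its few reads. Gbp2 over Gbp7 was closest, at -0.24 ± 0.0522 in ad-CRE and -0.30 ± 0.0692 in ad-GFP libraries (difference 0.05, exact permutation p = 0.257). Gbp6 over Gbp10 was 3.72 ± 1.53 in ad-CRE and 2.17 ± 0.195 in ad-GFP libraries (difference 1.55, exact permutation p = 0.143), where the 2 Gbp10 reads leave the ad-CRE ratio wide. A p above the threshold does not show that a pair changed alike.

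**Figure D4:**
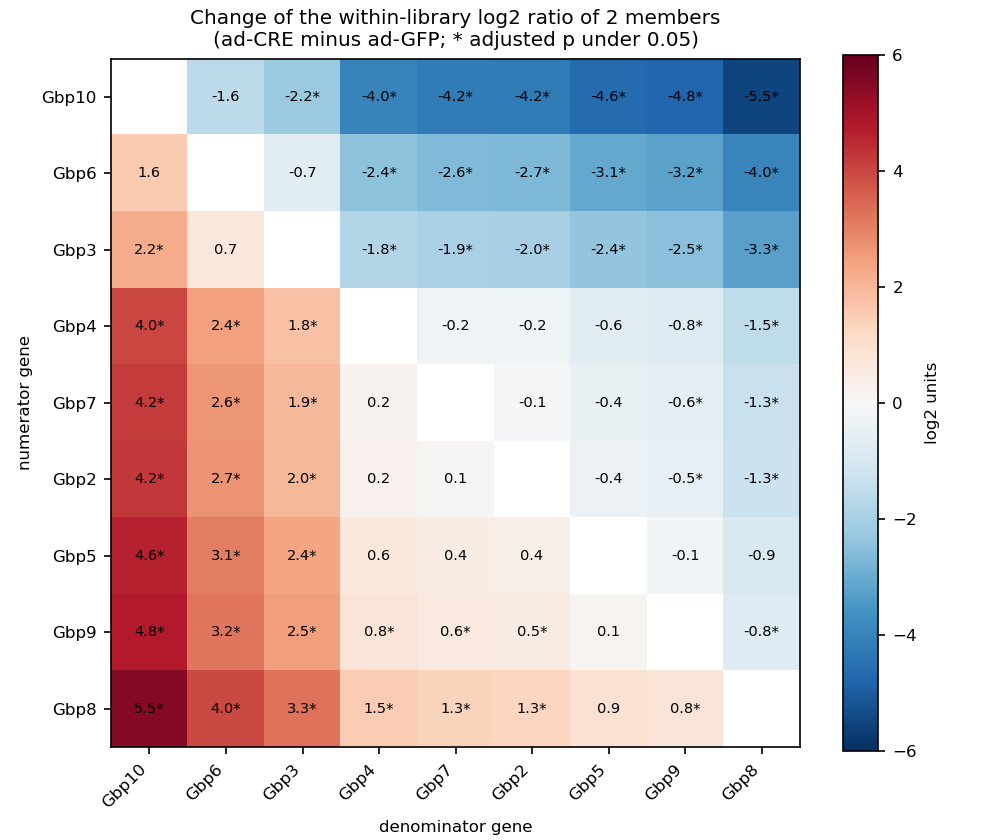
Difference between ad-CRE and ad-GFP libraries (ad-CRE minus ad-GFP) in the mean within-library log2 count ratio of each pair of tested members, with the numerator gene on the rows, the denominator gene on the columns and a star for an adjusted permutation p under 0.05. Genes are ordered by fold change from Gbp10 to Gbp8, 26 of the 36 pairs are starred, and an unstarred block in the middle holds the pairs among Gbp4, Gbp7, Gbp2 and Gbp5. The 14 starred pairs with Gbp5, Gbp6 or Gbp10, tested through their ad-GFP level, are a description only. Among members that reached the filter's cutoff in all 8 libraries, 12 of 15 pairs are starred.

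The genes on either side of the 2 runs went in both directions. Of the 20 nearest genes with a count row, 5 on each side of each run, 17 were tested, of which 6 fell and 8 rose, leaving 3 that did not pass. Their median log2 fold change was 0.14. Those that fell were 35.3% of the 17, near the 36.3% of all genes. Kyat3, a kynurenine aminotransferase 32.0 kb beyond the pseudogene Gbp2-ps that ends the chromosome 3 run, rose with a log2 fold change of 1.0 (SE 0.12 and adjusted p = 6.31e-09 in edgeR), and Pdlim5, a cytoskeletal adaptor 98.3 kb before Gbp5, had one of -0.43. Near the chromosome 5 run, Lrrc8b, a volume-regulated anion channel subunit 69.3 kb beyond Gbp11, rose with a log2 fold change of 0.55, and Abcg3, a transporter gene 31.4 kb before Gbp8, did not pass (0.26, edgeR adjusted p = 0.258). Farther out, Spp1, which encodes osteopontin, rose by 1.02 on the log2 scale and Unc5c, a netrin receptor gene, fell by 2.12. The remaining flanking genes that passed were Gtf2b (-0.16), Pkn2 (-0.25), Lmo4 (-0.41), Zfp326 (-0.19), Hs2st1 (0.14), Zfp951 (0.62), Thoc2l (0.16), Pkd2 (0.33) and Lrrc8c (0.30).

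**Figure D5:**
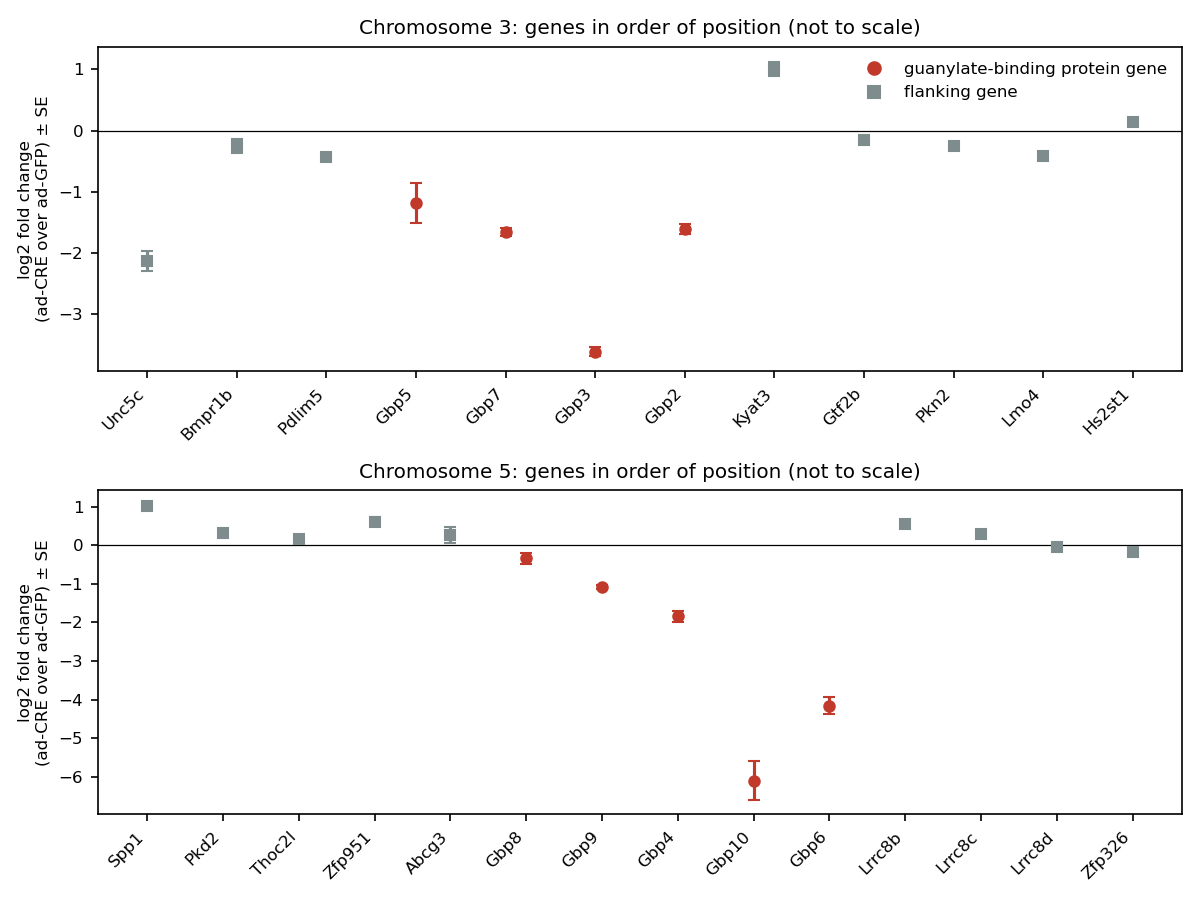
Log2 fold change, ad-CRE over ad-GFP, of the tested members (circles) and tested flanking genes (squares) in chromosomal order, not to scale, with SE as lines (n = 4 libraries each). Members lie below 0 in both runs, from -0.33 for Gbp8 to -6.10 for Gbp10, whose fitted value rests on 2 ad-CRE reads, while flanking genes lie on both sides of 0.

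Upstream of the family, the interferon signalling list was mixed in direction, with the larger changes mostly falls. Of 24 genes listed, 20 were tested, of which 6 fell and 9 rose, leaving 5 that did not pass. The median log2 fold change over the 20 was 0.08. The 30.0% that fell compare with 36.3% of all genes tested, and the 9 of 20 that rose with 36.8%. By 1 log2 unit or more, 5 of the 20 fell and 2 rose. The falls ran from -0.84 for Irf8 to -5.20 for Usp18. The rises were at most 0.49 (Ifnar1), apart from Socs1 (1.54) and Socs3 (1.26). Log2 fold changes were -2.58 for Stat2, a transcription factor of type I interferon signalling, -2.60 for Nlrc5, the MHC class I transactivator, and -5.20 for Usp18, an interferon-induced brake on the receptor. Jak1, the kinase shared by the interferon receptors, and Stat3 rose, with log2 fold changes of 0.27 and 0.36. Irf1, whose product is known for inducing GBPs, did not pass and averaged 32.4 ± 2.03 CPM in ad-CRE and 30.9 ± 2.54 CPM in ad-GFP libraries (log2 fold change 0.06, SE 0.058, edgeR adjusted p = 0.328).

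Other genes of that list were picked out after their values were seen. Irf9, a DNA-binding partner of STAT2, had a log2 fold change of -1.49, and Irf8 one of -0.84, both past the threshold. Receptor genes did not fall: Ifnar1 rose by 0.49 and Ifngr2 by 0.24, while Ifnar2 (0.09) and Ifngr1 (0.03) did not pass. The feedback inhibitors Socs1 and Socs3 rose by 1.54 and 1.26. The interferon genes themselves were at the edge of detection, with no read of Ifnb1 in ad-CRE and 5 in ad-GFP libraries, and no read of Ifng in ad-CRE and 1 in ad-GFP libraries. For Irf1 this choice was likewise made after its values were seen.

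The family most like GBPs in function, other interferon-inducible GTPases, was also lower in ad-CRE cells. Of 12 genes listed, 11 had a row and 10 were tested, and all 10 fell, with a median log2 fold change of -2.77. Of all genes tested 36.3% fell. Mx1, Mx2, Iigp1 and Tgtp2 were tested through their ad-GFP level, having reached the filter's cutoff in 0, 0, 1 and 2 ad-CRE libraries. The 6 that reached it in all 8 libraries all fell, with a median of -2.32. In this list no gene rose by edgeR, at an unadjusted p under 0.05 either, or in DESeq2 and limma voom. Tgtp1 (log2 fold change -6.20), Iigp1 (-6.18) and Tgtp2 (-5.54) are immunity-related GTPases that load onto parasite vacuoles. The regulatory members Irgm1, Irgm2 and Igtp, which keep the loading GTPases off the cell's own membranes, had log2 fold changes of -1.51, -2.27 and -2.44, and Ifi47 one of -2.12. The antiviral dynamin-like Mx2 had one of -5.99 and Mx1 one of -3.10. The very large GTPase Gvin1 had a log2 fold change of -2.36, averaging 315 ± 15.3 CPM in ad-CRE and 1612 ± 17 CPM in ad-GFP libraries. Tgtp1 and Tgtp2 are near-identical copies, and the split of reads between them is uncertain.

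GTPases and related ATPases that are not classed as interferon-induced went in both directions. Of 14 atlastins, dynamins, mitofusins and EHD proteins tested, 6 fell (42.9%) and 5 rose (35.7%), beside 36.3% and 36.8% of all genes tested. The median log2 fold change over the 14 was 0.02. Log2 fold changes were -1.96 for Dnm3, a dynamin, -1.76 for Ehd2, an ATPase of caveolae, -0.54 for the mitochondrial fusion gene Mfn2 and 0.65 for Mfn1.

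Genes of proteins that work with GBPs also went in both directions. Among 13 genes of the autophagy conjugation machinery and ubiquitin factors that bring GBPs to vacuoles, 4 fell (30.8%) and 9 rose (69.2%). Their median log2 fold change was 0.14, and of all genes tested 36.3% fell and 36.8% rose. Trim21, an interferon-inducible ubiquitin ligase, fell by 1.51 on the log2 scale, and the LC3 family genes Map1lc3a, Gabarap and Map1lc3b rose by 0.84, 0.36 and 0.28. The other 3 that fell were Atg7 (-0.45), Atg16l1 (-0.25) and Atg12 (-0.10), named after their values were seen. Of 6 enzymes of CAAX prenylation and processing, which attach and finish the lipid anchor of Gbp2 and Gbp5, 5 rose (83.3%) and none fell. Log2 fold changes lay between 0.13 and 0.25 for Fntb, Pggt1b, Rce1, Icmt and Zmpste24. No gene of that list fell at an unadjusted p under 0.05 in edgeR, nor in DESeq2 and limma voom, and Fnta did not pass (0.01, edgeR adjusted p = 0.874). The sign of Pggt1b turned on both log2 FPKM scales (-0.03 on each) and that of Fnta under several settings.

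Downstream, the inflammasome and oxidase genes through which GBPs act were lower for the most part. Of 12 listed, 11 were tested, of which 8 fell (72.7%) and 1 rose (9.09%), and their median log2 fold change was -0.57. Of all genes tested 36.3% fell and 36.8% rose. Casp4, the mouse caspase-11 gene that senses cytosolic lipopolysaccharide, fell by 3.23 on 22 reads in ad-CRE and 193 in ad-GFP libraries, and was tested through its ad-GFP level, having reached the filter's cutoff in no ad-CRE library. Of the 9 genes that reached it in all 8 libraries, 7 fell and 1 rose. Gsdmd, the pore former of pyroptosis, fell by 1.15, and the oxidase subunits Cybb and Cyba had log2 fold changes of -0.92 and -0.56. Nek7 had one of -0.10, and its call was lost without ad-GFP replicate 3 (edgeR adjusted p = 0.0556). Il1b, named after its value was seen, rose by 0.98. Several of these genes are expressed by macrophages, whose markers Adgre1 and Csf1r had log2 fold changes of -0.74 and -0.52, and the part of such cells was not tested.

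The genes outside the family whose profile over the 8 libraries was most like that of the summed members were found by the root mean square difference of centred log2 CPM among 11172 genes. They were Wdhd1 (0.0720 log2 units), Ifih1 (0.0746), Parp14 (0.0758), Ehd2 (0.0803) and Eif2ak2 (0.0805). Ifih1 had 25.6 ± 1.05 CPM in ad-CRE and 88.3 ± 5.22 CPM in ad-GFP libraries, and encodes the RNA sensor MDA5. Parp14 had 50.6 ± 2.99 CPM in ad-CRE and 191 ± 18.4 CPM in ad-GFP libraries, and Eif2ak2, the gene of the RNA-dependent kinase PKR, had 51.0 ± 2.39 CPM in ad-CRE and 175 ± 2.75 CPM in ad-GFP libraries. Wdhd1, a DNA replication factor, had 14.3 ± 0.775 CPM in ad-CRE and 50.2 ± 1.66 CPM in ad-GFP libraries.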

How the data were processed

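RNA-seq of 8 libraries was analysed from the authors' deposited table of counts and FPKM per gene. Per the submitters' processing notes the genome builds were GRCm38 and mm10, and the sources used here give no aligner, counter, strand setting or treatment of reads with several matches. The same deposited table gave the authors' log2 fold changes with p-values and false discovery rates, which are quoted only where named. Counts were tested with edgeR 4.0.16 in R 4.3.3 (filterByExpr, TMM, glmQLFit and glmQLFTest, Benjamini-Hochberg over 13702 genes, threshold 0.05), with log2 fold changes as ad-CRE over ad-GFP and SE from the fit. CPM used TMM-scaled library totals. DESeq2 1.42.0 and limma 3.58.1 (voom, and limma-trend on log2 FPKM with 1 or 0.1 added) served as alternatives. FPKM was used for levels between genes, and since reads per FPKM unit varied between libraries it is no fixed multiple of the counts. Ratios of counts had 0.5 added and were tested by exact two-sided permutation over libraries.

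The members and gene lists were chosen with earlier results of these data known. Named genes were all members, Suv39h1 and Smarca4, all tested genes of lists of 10 or fewer, in longer lists the 4 smallest p-values and the 2 highest mean log2 CPM, the flanking genes past the threshold and the 5 nearest profiles. Positions come from GENCODE M21, which held 22219 of 22274 gene IDs (99.75%), and promoters from RefSeq GRCm38.p6. No 2 libraries of a group agreed within sampling noise. Counts were simulated for 13595 genes with 200 altered in this comparison. Of these changes, 78% of those of 0.5 log2 units, 95.9% of 1 unit and 100% of 2 and of 4 units were recovered, and 5.58% of calls were false. Far more genes, 10022, were called in the data than were altered there, so these rates may not carry over. Intervals and limits cover counting error only, since nothing in the sources used here mentions molecular identifiers. Some genes of the lists are counted in the lists but not reported here by name.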

Additional observations from a re-analysis of the deposited data

Results flagged for a closer look

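Groups of 4 libraries were looked at for a library set far from the others, and 4 ends were found among 32 groups, where chance gives about 1 in 20. Gbp2 in ad-CRE had its lowest library, replicate 1, at 7.42 CPM with the nearest at 9.10 and the highest at 9.39 CPM, a gap of 0.851 of the range. Gbp7 in ad-CRE also had its lowest library in replicate 1, at 9.23 CPM with the nearest at 10.7 and the highest at 10.9 CPM, a gap of 0.881 of the range. Without that library the log2 fold changes were -1.53 for Gbp2 and -1.60 for Gbp7, and the same library had the highest ad-CRE values of Gbp5 and Gbp6. Gbp10 in ad-CRE had its reads in replicate 2, at 0.104 CPM against 0 in the other ad-CRE libraries, a gap of 1 times the range. Gbp2b, a related gene outside the 10 members, had 1 ad-CRE read, at 0.0463 CPM against 0 in the other ad-CRE libraries, again a gap of 1 times the range. With reads in a single library of the group, as in Gbp10 and Gbp2b, that gap is fixed by the low counts, and the chance rate does not apply to these ends.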

How the results depend on the processing

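Leaving out 1 library at a time, 8 to 9 members fell and none rose, and the counts for the other lists stayed within 1.5 times. With the chromosome 5 members summed with Gm43302, a setting chosen after seeing the data, the 5 units left all fell. Asking for at least 1 log2 unit, 8 members fell, against 9.43% of all genes tested. At that size 5 interferon signalling genes fell and 2 rose, 1 vacuole gene fell and 0 rose, and 0 prenylation enzymes rose. For inflammasome genes 3 fell and 0 rose, and for atlastin and dynamin genes 2 fell and 0 rose. Of the flanking genes 1 fell and 2 rose. Among all 13702 genes tested, 1292 fell and 663 rose at that size. With a filter of 5 CPM in 4 libraries 3 inflammasome genes fell, fewer having been tested, beside 4156 of all 10972 genes tested. On log2(FPKM + 1) 3 prenylation enzymes rose, as did 3 on log2(FPKM + 0.1), and the cause was not tested. Among all 13702 genes tested, 4277 and 4283 rose on these scales. Fnta turned to -0.0191 with total counts only, -0.0163 with the 5 CPM filter, and -0.0159 and -0.0166 on log2(FPKM + 1) and log2(FPKM + 0.1), where Pggt1b turned to -0.0252 and -0.0261. Leaving out 1 library, Fnta ranged from -0.0158 without ad-GFP replicate 3 to 0.0280 without ad-GFP replicate 1. With the replicate block in edgeR, 9 members fell, Gbp8 by 0.34 (adjusted p = 0.0453), and 9963 genes were called in all, against 10022 without it. Same-numbered libraries correlated at -0.07 to 0.07 in their deviations, so the numbers gave no pairing. The planned summing of members by protein identity was not run. Reads limit Gbp5, Gbp10 and Gbp11 most, and the other members' calls held under each planned setting in which they were tested, apart from that of Gbp8.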

Other observations

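Outside the family, 42 tested genes had the longer ISRE letters (GAAA, any pair of bases, GAAA and CT) in a RefSeq promoter window, and 32 of them (76.2%) fell in ad-CRE libraries, with a median log2 fold change of -1.52. Of the 33 that reached the filter's cutoff in all 8 libraries, 25 fell, with a median of -0.96. Among all 12694 genes that reached it in all 8 libraries, 4434 fell, and the median over the 12694 was 0.02. Of 10736 tested genes with a window and without these letters, 35.8% fell. With the shorter ISRE core, 45.3% of 408 genes outside the family fell, and with the GAS letters 37.5% of 895. These shares describe genes, which are not independent replicates, and the motif was chosen with the members' values known.

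Of those 42 genes, 3 rose, namely Cxcl10, a chemokine gene named in the study's title, with a log2 fold change of 2.80 (edgeR adjusted p = 1.8e-27), Oas1c with 0.42 (edgeR adjusted p = 0.00286) and Apobec3 with 0.29 (edgeR adjusted p = 0.000168). Among those that fell, picked out after their values were seen, were the interferon-induced genes Ifit1 (-5.43), Oas1a (-3.75), Ifitm3 (-3.75) and Bst2 (-3.04).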
